A study of Mus musculus with 3 samples.

Results

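The integrin and laminin genes of embryonic mouse skull mesenchyme were examined in libraries of 3 genotypes at Ctnnb1, the gene of beta-catenin. Members were the genes whose whole symbol is Itga or Itgb followed by a number, by l, m, v, x, d or e, or by 2b, or Lama, Lamb or Lamc followed by a number. The rule found 37 of the 43280 listed genes: 18 integrin alpha genes, 8 integrin beta genes and 11 laminin genes. Binding-protein genes such as Itgb1bp1 were left out. RNA came from primary cells labelled as skeletal mesenchyme at E15.5, which the series calls calvarial, the tissue of the flat skull bones and their connective tissue. The library called dTF-cKO carried 1 floxed Ctnnb1 allele and 1 dm allele (fx/dm) with Dermo1-Cre. The library called cKO was fx/fx with Dermo1-Cre, and the control was fx/fx with no Cre named. The labels leave dm undefined; a Ctnnb1 allele known by this name encodes beta-catenin that still works in adhesion but lacks transcriptional output. Dermo1-Cre is driven by the Twist2 locus, which is active in mesenchyme and not in epithelium. No fx/dm library lacking Cre was analysed here, and whether a library came from 1 embryo or a pool is not given in the sources used here. With 1 library per genotype, no difference below has a replicate check, no p-value was computed, and the intervals cover counting error only.

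Integrins are surface receptors made of an alpha and a beta chain, and they tie the actin cytoskeleton, or keratin filaments in the case of the alpha6 beta4 pair, to the matrix outside the cell. Laminins are trimers of an alpha, a beta and a gamma chain that polymerise into the sheet of basement membranes under epithelia and around vessels, muscle fibres and nerves. In bone, integrins pairing with the beta1 and beta5 chains hold osteoblasts to collagen, fibronectin and RGD-containing matrix proteins, whereas mesenchymal cells between basement membranes have little laminin of the epithelial types. In skin, the laminin that contains the products of Lama3 and Lamb3 is held by alpha6 beta4 in hemidesmosomes and by alpha3 beta1.

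The libraries held 2905264 (dTF-cKO), 2678457 (cKO) and 3634819 (control) counts, and 3 counts corresponded to between 0.839 and 1.07 CPM (counts scaled to library size with TMM factors). The tissue label was checked against marker lists. The 13 osteoblast markers summed to 8308, 39426 and 186048 CPM in the dTF-cKO, cKO and control. The 16 epidermis markers summed to 15579, 20864 and 164 CPM in the same order; 16, 16 and 14 of them were detected, with Dsg3 and Grhl3 at 0 counts in the control. Both Cre libraries therefore held keratinocyte transcripts that the label does not name. In bulk RNA, fewer cells of a type and less RNA per cell cannot be told apart. Sex-linked transcripts differed together with Cre: 4 Y-linked genes gave 444 counts in the dTF-cKO, 362 in the cKO and 0 in the control. Ctnnb1 itself had 1236 counts in the dTF-cKO, 2106 in the cKO and 3669 in the control, over all its alleles.

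In the Cre libraries, above all the dTF-cKO, some chains known from epithelium (Lama3, Lama5, Lamb3, Itga3, Itgb4, Itgb6) were higher than in the control, and the collagen receptor chain Itga10 was lower. Itga6, the partner of Itgb4, rose less, at 1.90-fold in the cKO against the control. Itgb6 in the cKO rests on 14 counts against 2 in the control. All 37 members together took 0.483% of the dTF-cKO counts (exact 95% interval 0.475% to 0.491%), 0.329% of the cKO counts (0.322% to 0.336%) and 0.333% of the control counts (0.327% to 0.339%). Genes with a mean of at least 5 CPM over the libraries count as measured, which gave 32 members among 12127 genes. The 5 members under that floor were the leukocyte chains Itgal, Itgax, Itgad and Itgae, with at most 16 counts in any library, and Itgb8, with 3, 8 and 14 counts in the dTF-cKO, cKO and control. A difference was called when the log2 CPM, computed with a prior count of 2, differed by at least 1, a 2-fold difference. In the dTF-cKO against the control, 9 measured members were higher and 9 lower, beside 19.5% higher and 20.9% lower among all measured genes. In the cKO against the control, 8 were higher and 1 lower, beside 9.66% and 6.78% of all measured genes. In the dTF-cKO against the cKO, 8 were higher and 8 lower, beside 14.5% and 20.5%. Both comparisons with the control share that library, and the cKO library also enters a pair of the comparisons. By a 1.5-fold rule 4 members were lower in the cKO against the control (13.2% of all measured genes), and by a 3-fold rule 5 were lower in the dTF-cKO against the control (13.1%) and 5 against the cKO (12.5%).

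The median log2 difference of the 32 measured members was -0.06 in the dTF-cKO against the control, 0.26 in the cKO against the control and -0.26 in the dTF-cKO against the cKO, beside 0.06, 0.06 and 0.01 over all measured genes. Some of these members were measured only through the library where they were high. Among them, Lamb3, Itgb6 and Itgb7 were under 5 CPM in the control, and Itga7, Itga4, Itgb2, Lamc3 and Itga2b were under it in the dTF-cKO. Of the 9 higher members of the dTF-cKO against the control, 4 were of the first kind, and of the 9 lower ones 4 were of the second kind, and of the 8 higher members of the cKO against the control 3 were of the first kind, so the counts describe these members and are no evidence about the families.

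**Figure D1:**
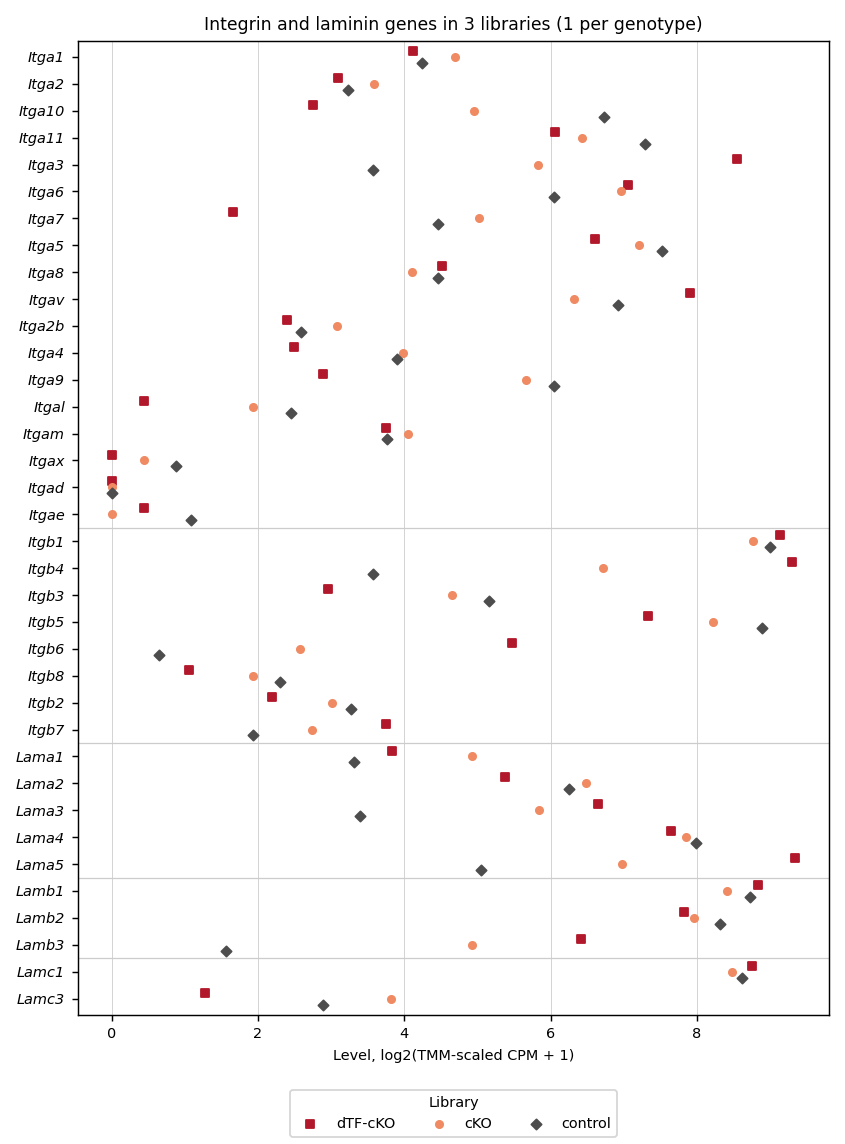
Level of 36 members in each library, as log2 of TMM-scaled CPM plus 1 (squares dTF-cKO, circles cKO, diamonds control; 1 library each). Lama5, Itga3 and Itgb4 lie furthest right in the dTF-cKO and furthest left in the control, whereas Itgb1, Lamb1 and Lamc1 lie within 2-fold on this TMM scale.

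The alpha3 and beta3 chains, which share a laminin of the epidermis, were higher in both Cre libraries. Lamb3, the beta3 chain, had 237 counts in the dTF-cKO, 83 in the cKO and 7 in the control. Lama3, the alpha3 chain, had 278 counts in the dTF-cKO, 159 in the cKO and 34 in the control. In both genes the order was the same, with the dTF-cKO highest and the control lowest. Against the control, Lamb3 was 43.2-fold higher in the dTF-cKO (95% counting interval 20.7 to 109) and 14.99-fold higher in the cKO (6.96 to 38.5). Lama3 had smaller ratios and was 10.4-fold higher in the dTF-cKO (7.30 to 15.4) and 5.91-fold higher in the cKO (4.06 to 8.84). Only 7 (Lamb3) and 34 (Lama3) control reads stand under these ratios.

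Between the Cre libraries, Lamb3 was 2.88-fold higher in the dTF-cKO against the cKO (2.24 to 3.75) and Lama3 1.77-fold (1.45 to 2.16), which is short of the 2-fold rule. A ratio within a library needs no scaling: there were 1.17 Lama3 reads per Lamb3 read in the dTF-cKO (0.983 to 1.40), 1.92 in the cKO (1.46 to 2.53) and 4.86 in the control (2.12 to 12.98). The interval of the dTF-cKO lies below those of the cKO and the control, which overlap each other. Lamc1, the gamma1 chain of most other laminins, had 1212 counts in the dTF-cKO, 1006 in the cKO and 1407 in the control, and was within 2-fold in every comparison.

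Among the alpha chains the leading gene changed. Lama5, the alpha chain of laminins under mature epithelia and in vessels, had 1820 counts in the dTF-cKO, 355 in the cKO and 115 in the control. Lama4, the alpha chain of laminins of endothelium and mesenchymal tissue, had 556 counts in the dTF-cKO, 652 in the cKO and 908 in the control. Thus Lama5 was highest in the dTF-cKO and Lama4 in the control. Lama5 was 20.2-fold higher in the dTF-cKO against the control (16.7 to 24.6), 3.90-fold higher in the cKO against the control (3.15 to 4.86), and 5.18-fold higher when the dTF-cKO was set against the cKO (4.62 to 5.82). Lama4 was within 2-fold in every comparison under TMM, and 1.44 higher on the log2 scale in the dTF-cKO against the control under the stroma scaling described below. The endothelium markers summed to 374, 1726 and 1202 CPM in the dTF-cKO, cKO and control, and their part in the Lama4 values was not tested. There were 3.27 Lama5 reads per Lama4 read in the dTF-cKO (2.98 to 3.61), 0.544 in the cKO (0.477 to 0.621) and 0.127 in the control (0.103 to 0.154), and no pair of these intervals overlaps. As shares of the alpha chain level per kb, Lama5 held 65.9% in the dTF-cKO, 25.2% in the cKO and 9.33% in the control, and Lama4 held 18.99%, 43.6% and 69.5% in the same order.

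Lama2, the alpha chain of the laminin around muscle fibres and Schwann cells, had 114 counts in the dTF-cKO, 250 in the cKO and 269 in the control, and was 2.17-fold lower in the dTF-cKO against the cKO (1.73 to 2.73), although 0.76 higher on the log2 scale under the stroma scaling. The skeletal muscle markers had summed levels of 13.2, 270 and 1832 CPM in the dTF-cKO, cKO and control, and Myod1, Myog and Ckm at 0 counts in the dTF-cKO; their part in the Lama2 values was not tested. Lama1, the alpha chain of the early embryo and of some epithelial basement membranes, was highest in the cKO, with 37 counts in the dTF-cKO, 83 in the cKO and 32 in the control. It was 3.28-fold higher in the cKO against the control (2.16 to 5.10) and 2.22-fold lower in the dTF-cKO against the cKO (1.49 to 3.37), and this second difference turned to 0.72 higher on the log2 scale under the stroma scaling.

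The widely expressed Lamb1, Lamb2 and Lamc1 were within 2-fold under TMM scaling. Lamb1, the beta chain of most laminins, had 1283 counts in the dTF-cKO, 957 in the cKO and 1510 in the control. Lamb2, the beta chain of vessel, muscle and nerve basement membranes, had 631 counts in the dTF-cKO, 704 in the cKO and 1134 in the control. Neither reached 2-fold in any comparison under TMM, but under the stroma scaling Lamb1, Lamb2 and Lamc1 were 1.92, 1.31 and 1.94 higher on the log2 scale in the dTF-cKO against the control. Lamc3, a gamma chain of low level outside nervous and vascular tissue, had 4 counts in the dTF-cKO, 37 in the cKO and 23 in the control. It was 9.16-fold lower in the dTF-cKO against the cKO (3.29 to 35.4), on 41 reads in all. The alpha and beta chains summed to 86.7 and 96.1 CPM per kb in the dTF-cKO, to 43.8 and 79.5 in the cKO, and to 30.3 and 95.04 in the control, so the beta sum was the higher in each library and the sums were closest in the dTF-cKO.

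**Figure D2:**
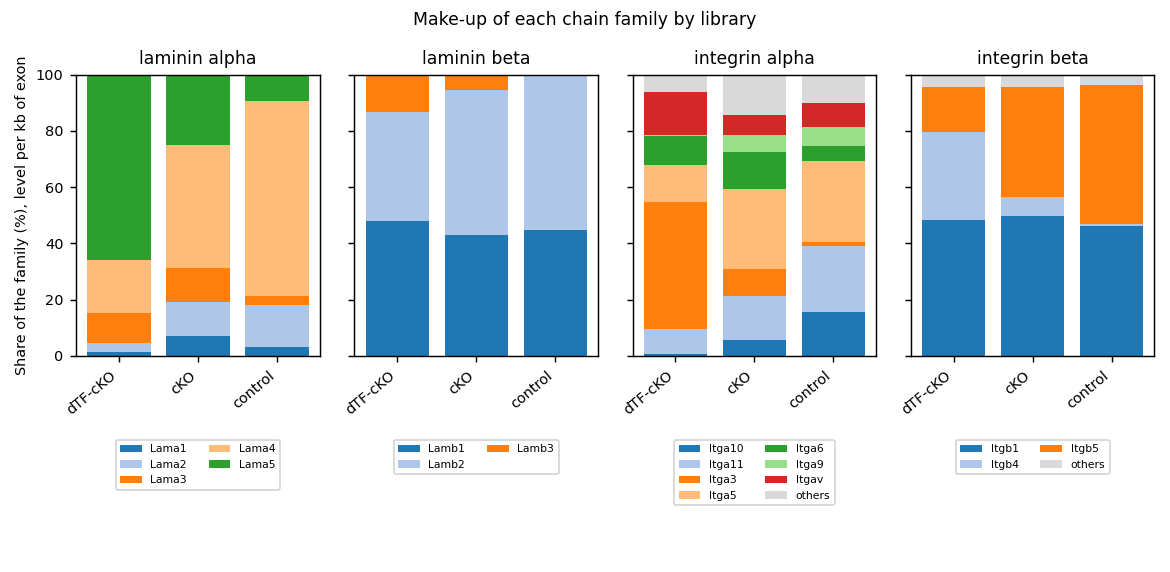
Share of 4 chain families held by their members in each library, in percent of the family's summed level per kb of exon (bars from left to right dTF-cKO, cKO and control; chains under 5% in every library are pooled as others). Lama5, Itga3 and Itgb4 have a larger share in the dTF-cKO than in either other library, and Lama4, Itga11 and Itgb5 have theirs in the control.

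Of the integrin chains that bind laminin, Itgb4 and Itga3 were higher in both Cre libraries. Itgb4, which pairs with alpha6 alone and whose long tail anchors keratin filaments at hemidesmosomes, had 1765 counts in the dTF-cKO, 294 in the cKO and 39 in the control. Itga3, the alpha chain of the alpha3 beta1 receptor for epithelial laminins, had 1046 counts in the dTF-cKO, 158 in the cKO and 39 in the control. Itga6, which pairs with beta1 or beta4, had 372 counts in the dTF-cKO, 350 in the cKO and 233 in the control. Both Itgb4 and Itga3 were thus lowest in the control, while Itga6 was nearly level between the Cre libraries. Itgb4 was 57.8-fold higher in the dTF-cKO against the control (42.1 to 81.6), 9.53-fold higher in the cKO against the control (6.81 to 13.7), and 6.06-fold higher when the dTF-cKO was set against the cKO (5.36 to 6.88). Itga3 was 34.3-fold higher in the dTF-cKO against the control (24.9 to 48.5), 5.12-fold higher in the cKO against the control (3.59 to 7.47), and 6.69-fold higher when the dTF-cKO was set against the cKO (5.65 to 7.96). Itga6 lay at the threshold, 2.04-fold higher in the dTF-cKO against the control (1.73 to 2.41) and 1.90-fold in the cKO (1.605 to 2.25), and dropped below 2-fold in the dTF-cKO when libraries were scaled to their totals.

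Itgb4 and its obligate partner therefore did not change in proportion. There were 4.74 Itgb4 reads per Itga6 read in the dTF-cKO (4.24 to 5.32), 0.840 in the cKO (0.717 to 0.984) and 0.167 in the control (0.116 to 0.236). Against Itgb1, the shared partner of most alpha chains, Itgb4 had 112 reads per 100 in the dTF-cKO (105 to 120), 23.8 in the cKO (20.9 to 27.1) and 2.14 in the control (1.51 to 2.93). Itgb1 itself had 1574 counts in the dTF-cKO, 1233 in the cKO and 1826 in the control and was within 2-fold in every comparison. Per kb of exon it led the beta chains in the dTF-cKO and the cKO, with 138 and 107 CPM per kb, and Itgb5 led in the control with 134 against 125 for Itgb1. Itga7, the laminin receptor chain of muscle, went the other way: it had 6 counts in the dTF-cKO, 89 in the cKO and 75 in the control, and was 14.7-fold lower in the dTF-cKO against the cKO (6.49 to 41.1). The skeletal muscle marker sums given above were lower in both Cre libraries than in the control. Itga7 in the cKO was 0.57 above the control on the log2 scale (fold interval 1.09 to 2.07), short of the 2-fold rule. The 12 smooth muscle and pericyte markers had median log2 differences of 0.38 in the cKO against the control and -2.62 in the dTF-cKO against the cKO. Against the cKO, 3 were higher and 7 lower in the dTF-cKO, beside 14.5% and 20.5% over all measured genes. The 12 markers summed to 1607, 1264 and 1096 CPM in the dTF-cKO, cKO and control. The part of either muscle type in the Itga7 values was not tested.

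The epithelial chains were set against keratinocyte genes of the same library. Krt5 and Krt14, the keratins of the basal epidermal layer, had 12663 and 5788 counts in the dTF-cKO, 5759 and 3047 in the cKO, and 86 and 20 in the control. Keratins of other states differed between the Cre libraries: Krt1 and Krt10 of the upper layers had 102 and 901 counts in the dTF-cKO against 16591 and 19639 in the cKO, and Krt17, found in developing and wounded epidermis, had 3967 counts in the dTF-cKO against 103 in the cKO. Per 100 Krt5 reads, Itgb4 had 13.9 in the dTF-cKO (13.3 to 14.7), 5.11 in the cKO (4.53 to 5.74) and 45.3 in the control (30.2 to 66.9). Lama5 and Itga3 likewise had more reads per Krt5 read in the dTF-cKO than in the cKO, at 14.4 and 8.26 per 100 in the dTF-cKO and 6.16 and 2.74 per 100 in the cKO. Lamb3 and Lama3 did not follow, at 1.87 (1.64 to 2.13) and 2.20 (1.94 to 2.47) in the dTF-cKO and 1.44 (1.15 to 1.79) and 2.76 (2.34 to 3.23) in the cKO, with overlapping intervals. Itga6 had fewer, at 2.94 in the dTF-cKO (2.64 to 3.26), 6.08 in the cKO (5.44 to 6.77) and 271 in the control (211 to 351). Col17a1, the hemidesmosomal collagen, was looked up after the values were seen and had 14.3, 14.7 and 16.3 reads per 100 Krt5 reads in the dTF-cKO, cKO and control. The part that keratinocyte content plays in the higher Lama3, Lamb3, Lama5, Itga3 and Itgb4 counts was not tested.

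**Figure D3:**
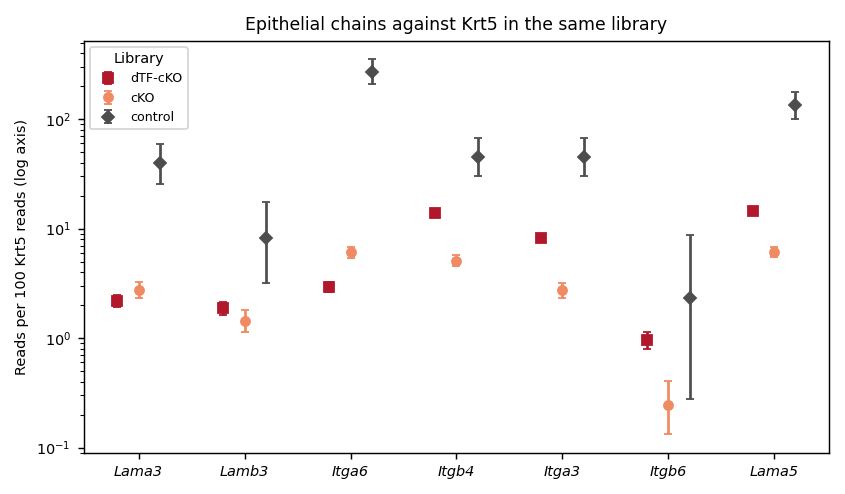
Reads of 7 epithelial chains per 100 Krt5 reads of the same library, on a log axis, with exact 95% counting intervals (squares dTF-cKO, circles cKO, diamonds control). Itgb4, Itga3, Itgb6 and Lama5 lie higher in the dTF-cKO than in the cKO, Itga6 lies lower, and the control, with 86 Krt5 reads, lies above both with its whole interval in Lama3, Lamb3, Itga6, Itgb4, Itga3 and Lama5.

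Promoter windows of RefSeq (GRCm38.p6, 250 bases before to 50 after a start site) were matched for 23 of the 37 members, in 26 windows. Shown are the most upstream windows of Itga3, Lama5 and Lamb3, which were higher in both Cre libraries, and of Itga10, which was lower in both; they are at chr11:95076665-95076964 (minus strand), chr2:180225810-180226109 (minus strand), chr1:193301744-193302043 (plus strand) and chr3:96645334-96645633 (plus strand). The 3 motifs below were searched on both strands, and capitals mark their matches: CTTTGAT, the core recognised by the TCF/LEF factors that beta-catenin activates, TGANTCA, recognised by AP-1, and GGGCGG, the GC box. No match shown overlaps another.
Itga3: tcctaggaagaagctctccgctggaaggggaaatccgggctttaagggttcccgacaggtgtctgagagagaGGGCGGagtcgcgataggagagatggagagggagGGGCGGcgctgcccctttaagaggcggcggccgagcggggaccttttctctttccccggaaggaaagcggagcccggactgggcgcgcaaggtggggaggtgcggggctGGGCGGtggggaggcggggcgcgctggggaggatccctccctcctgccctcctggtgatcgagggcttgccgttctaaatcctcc
Lama5: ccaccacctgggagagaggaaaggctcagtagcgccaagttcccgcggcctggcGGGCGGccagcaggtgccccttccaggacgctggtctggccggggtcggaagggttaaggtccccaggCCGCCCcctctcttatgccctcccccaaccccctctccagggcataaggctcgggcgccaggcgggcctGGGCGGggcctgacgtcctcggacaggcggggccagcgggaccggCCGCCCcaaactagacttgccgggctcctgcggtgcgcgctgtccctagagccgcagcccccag
Lamb3: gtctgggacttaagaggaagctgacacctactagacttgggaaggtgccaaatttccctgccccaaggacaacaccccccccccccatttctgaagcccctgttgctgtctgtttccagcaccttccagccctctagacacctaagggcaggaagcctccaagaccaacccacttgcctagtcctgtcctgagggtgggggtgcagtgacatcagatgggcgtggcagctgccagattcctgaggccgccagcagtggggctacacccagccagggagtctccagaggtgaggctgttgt
Itga10: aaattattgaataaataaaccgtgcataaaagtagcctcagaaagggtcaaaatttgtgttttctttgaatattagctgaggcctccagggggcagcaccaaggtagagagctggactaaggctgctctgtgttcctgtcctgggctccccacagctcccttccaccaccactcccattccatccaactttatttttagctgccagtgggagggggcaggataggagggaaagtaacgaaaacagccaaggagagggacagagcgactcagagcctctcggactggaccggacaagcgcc
The windows of Itga3 and Lama5 hold 3 and 4 GC boxes, all before the start site, and those of Lamb3 and Itga10 hold none of the motifs. CTTTGAT was in 0 of the 26 member windows and in 3.73% of the 32851 windows of the table. TGANTCA was in 3 member windows, of Itgax, Itga9 and the downstream window of Itga3, and in 7.81% of all windows. GGGCGG was in 12 member windows and in 35.7% of all windows. These are letter matches in short windows and say nothing of binding.

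Of the collagen-binding integrin chains, Itga10 was lower in both Cre libraries and Itga11 in the dTF-cKO. Itga10, the collagen receptor chain of cartilage and bone surfaces, had 16 counts in the dTF-cKO, 85 in the cKO and 376 in the control. Itga11, the collagen receptor chain of fibroblasts and of periodontal and bone mesenchyme, had 185 counts in the dTF-cKO, 241 in the cKO and 556 in the control. Both were highest in the control and lowest in the dTF-cKO. Itga10 was 18.4-fold lower in the dTF-cKO against the control (11.2 to 32.5) and 3.50-fold lower in the cKO (2.76 to 4.48), the only member called lower in the cKO. Itga11 was 2.35-fold lower in the dTF-cKO against the control (1.99 to 2.79), a direction that turned to 0.56 higher on the log2 scale under the stroma scaling, and 1.82-fold lower in the cKO (1.57 to 2.13), short of the 2-fold rule. In GENCODE vM21 a second gene model, Gm42957, covers 33.5% of the Itga10 exon bases on the same strand. It is not among the listed genes, so no counts are given for it.

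Bone and cartilage markers were set beside Itga10. Of 12 chondrocyte markers, 8 were called higher and 0 lower in the cKO against the control, beside 9.66% and 6.78% over all measured genes. In the dTF-cKO, 0 were higher and 6 lower against the control, beside 19.5% and 20.9%. Against the cKO, 0 were higher and 11 lower in the dTF-cKO, beside 14.5% and 20.5%. The chondrocyte markers summed to 509, 3058 and 1060 CPM in the dTF-cKO, cKO and control. Of 13 osteoblast markers, 12 were called lower in the dTF-cKO against the control (20.9% of all measured genes) and 13 in the cKO (6.78%). Per 100 reads of Col2a1, the main cartilage collagen, Itga10 had 2.22 in the dTF-cKO (1.26 to 3.62), 1.71 in the cKO (1.36 to 2.11) and 19.9 in the control (17.8 to 22.3). The part of bone cell content in the Itga10 values was not tested. The other collagen receptor chains, Itga1 and Itga2, had between 21 and 70 counts and were within 2-fold in every comparison.

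Among receptors for RGD-containing ligands, the beta chains that pair with alpha v differed in opposite directions. Itgb5, a partner of alpha v on vitronectin, had 449 counts in the dTF-cKO, 845 in the cKO and 1698 in the control. Itgb3, the beta chain of the osteoclast and platelet receptors, had 19 counts in the dTF-cKO, 68 in the cKO and 124 in the control. Itgb6, the epithelial partner of alpha v that activates latent TGF-beta, had 121 counts in the dTF-cKO, 14 in the cKO and 2 in the control. Itgb5 and Itgb3 were thus lowest in the dTF-cKO and Itgb6 highest there. The osteoclast markers summed to 145, 242 and 1042 CPM in the dTF-cKO, cKO and control, and their part in Itgb3 was not tested. Itgb5 was 2.96-fold lower in the dTF-cKO against the control (2.67 to 3.29), but 0.24 higher on the log2 scale under the stroma scaling, and 1.59-fold lower in the cKO (1.46 to 1.73). Itgb3 was 5.11-fold lower in the dTF-cKO against the control (3.14 to 8.77) and 1.44-fold lower in the cKO (1.06 to 1.97); the first of these lost its call under the stroma scaling, at -0.54 on the log2 scale. Itgb6 was 77.3-fold higher in the dTF-cKO against the control (20.9 to 645) and 8.73-fold higher than in the cKO (5.01 to 16.4).

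Itgav, the alpha v chain that all of these bind, did not go with Itgb5. It had 667 counts in the dTF-cKO, 223 in the cKO and 430 in the control, and was 3.02-fold higher in the dTF-cKO against the cKO (2.59 to 3.53) and 1.98-fold higher than in the control (1.75 to 2.24). Per 100 Itgav reads, Itgb5 had 67.3 in the dTF-cKO (59.6 to 76.0), 379 in the cKO (327 to 441) and 395 in the control (355 to 440), and Itgb6 had 18.1 in the dTF-cKO (14.8 to 22.05), 6.28 in the cKO (3.38 to 10.8) and 0.465 in the control (0.0561 to 1.69). The 4 beta chains that pair with alpha v summed to 52.5, 89.2 and 140 CPM per kb in the dTF-cKO, cKO and control. Itga5, the alpha chain of the fibronectin receptor, had 270 counts in the dTF-cKO, 416 in the cKO and 653 in the control and stayed within 2-fold (0.88 higher on the log2 scale in the dTF-cKO against the control under the stroma scaling), as did Itga8, a receptor chain for nephronectin with between 46 and 75 counts. Per 100 Itgb1 reads, Itga5 had 17.2 in the dTF-cKO (15.02 to 19.5), 33.7 in the cKO (30.1 to 37.7) and 35.8 in the control (32.7 to 39.1).

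Chains of the alpha4 and alpha9 class were lower in the dTF-cKO. Itga9, a receptor chain for tenascin and other matrix ligands, had 18 counts in the dTF-cKO, 141 in the cKO and 234 in the control. Itga4, the alpha chain that binds fibronectin and Vcam1, had 13 counts in the dTF-cKO, 42 in the cKO and 50 in the control. The cKO was within 2-fold of the control in both. Itga9 was 10.2-fold lower in the dTF-cKO against the control (6.30 to 17.5) and 7.76-fold lower than in the cKO (4.73 to 13.5). Itga4 was 3.01-fold lower in the dTF-cKO against the control (1.61 to 6.04) and 3.20-fold lower than in the cKO (1.68 to 6.49), and both of these differences turned to 0.20 higher on the log2 scale under the stroma scaling.

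Leukocyte and platelet chains were of low level throughout. Itgam, the alpha chain of the complement receptor of myeloid cells, had 35, 44 and 45 counts in the dTF-cKO, cKO and control. In GENCODE vM21 another gene model, Gm49368, covers 68.7% of the Itgam exon bases on the same strand and is not among the listed genes. Itgb2, the shared beta chain of leukocyte integrins, had 10, 20 and 31 counts in the same order and was 2.43-fold lower in the dTF-cKO against the control (1.16 to 5.55), but 0.48 higher on the log2 scale under the stroma scaling. Itgb7, the beta chain of lymphocyte homing receptors, had 35, 16 and 10 counts in the same order and was 4.47-fold higher in the dTF-cKO against the control (2.17 to 10.1). Itgb7 therefore ran opposite to Itgb2 under TMM. Of the alpha partners of Itgb7, Itgae had 1, 0 and 4 counts and Itga4 had 13, 42 and 50, in the dTF-cKO, cKO and control. The 13 leukocyte and macrophage markers found summed to 372, 689 and 424 CPM in the dTF-cKO, cKO and control. Itga2b, the platelet alpha chain, had 12, 21 and 18 counts in the dTF-cKO, cKO and control, and the platelet markers summed to 60.4, 76.8 and 24.6 CPM, with Gp9, Gp1ba, Gp6 and Clec1b at 0 counts in the dTF-cKO.

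**Figure D4:**
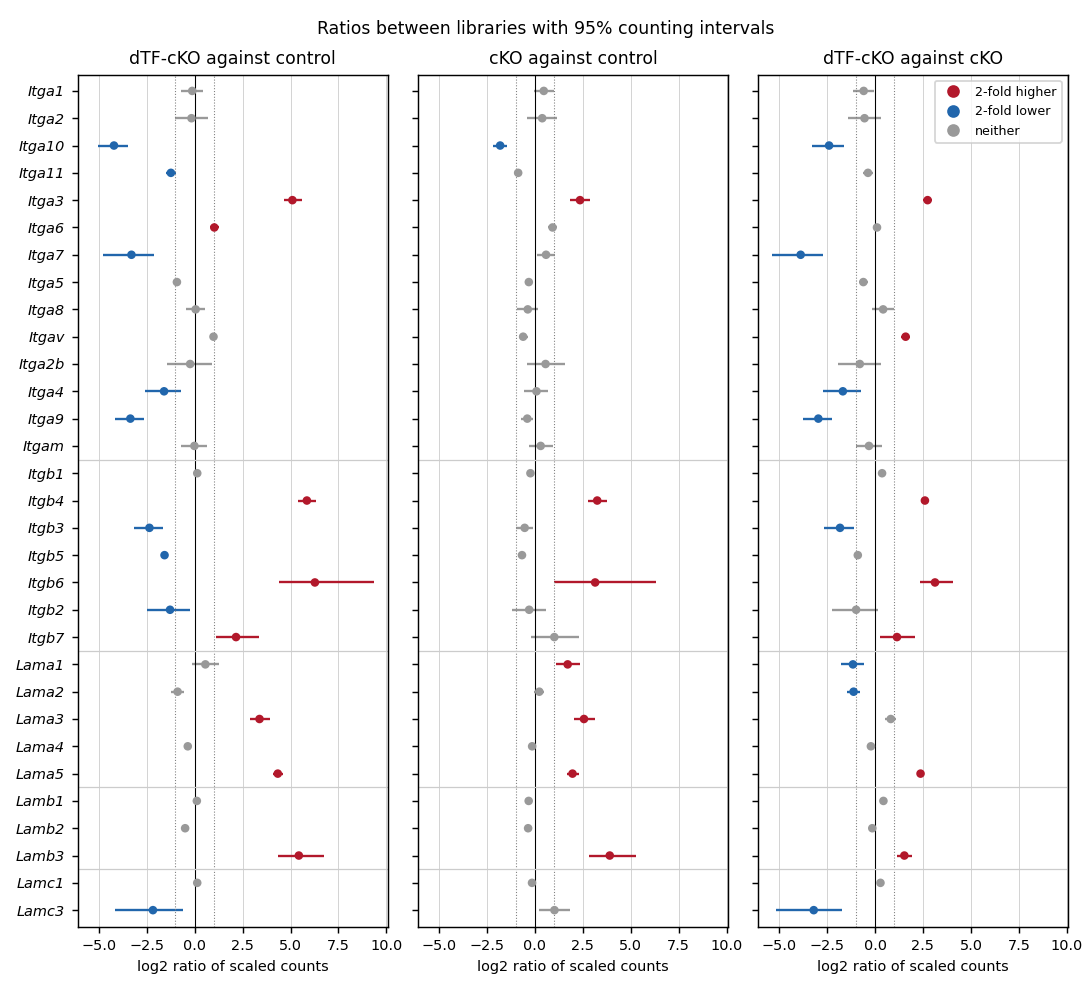
Log2 ratio of scaled counts of 31 measured members for the dTF-cKO against the control, the cKO against the control and the dTF-cKO against the cKO (points), with exact 95% counting intervals (lines); red is at least 2-fold higher, blue at least 2-fold lower by the log2 rule, and dotted lines mark a 2-fold ratio. Itgb4 lies far right in all 3 panels, and Itga10 lies left in all 3.

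Several of these directions rest on how the libraries are put on a common scale. The stroma scaling sets each library by the median ratio of 54 genes of vessels, pericytes, fibroblasts and meninges. Of these, 36 were called lower and 4 higher in the dTF-cKO against the control under TMM, beside 20.9% and 19.5% over all measured genes. The 4 were Acta2 (5.24-fold), Tagln (6.96-fold), Cnn1 (5.003-fold) and Crabp1 (3.15-fold), named after their values were seen. The summed smooth muscle and pericyte level was 1607 CPM in the dTF-cKO and 1096 CPM in the control. It moved the median of all measured genes to 1.82 in the dTF-cKO against the control and to 1.86 against the cKO, on the log2 scale, and it called 74.0% of all measured genes higher and 5.58% lower in the dTF-cKO against the control, so it reads other genes relative to stroma. Under it, all 9 members called higher in the dTF-cKO against the control kept their call, which its upward shift of this comparison fixed in advance. Of the 9 lower members, 3 (Itga10, Itga7 and Itga9) kept theirs and 4 changed sign. Members not called under TMM changed sign as well: Itga1, Itga2, Itga2b, Itga5, Itgam, Lama2, Lama4 and Lamb2 turned from lower to higher, so that 12 members changed sign in the dTF-cKO against the control and 14 against the cKO. Where a member is said above to be within 2-fold, that holds under TMM scaling. In the cKO against the control, the 8 higher members and Itga10 kept their calls under each of the 5 scalings.

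**Figure D5:**
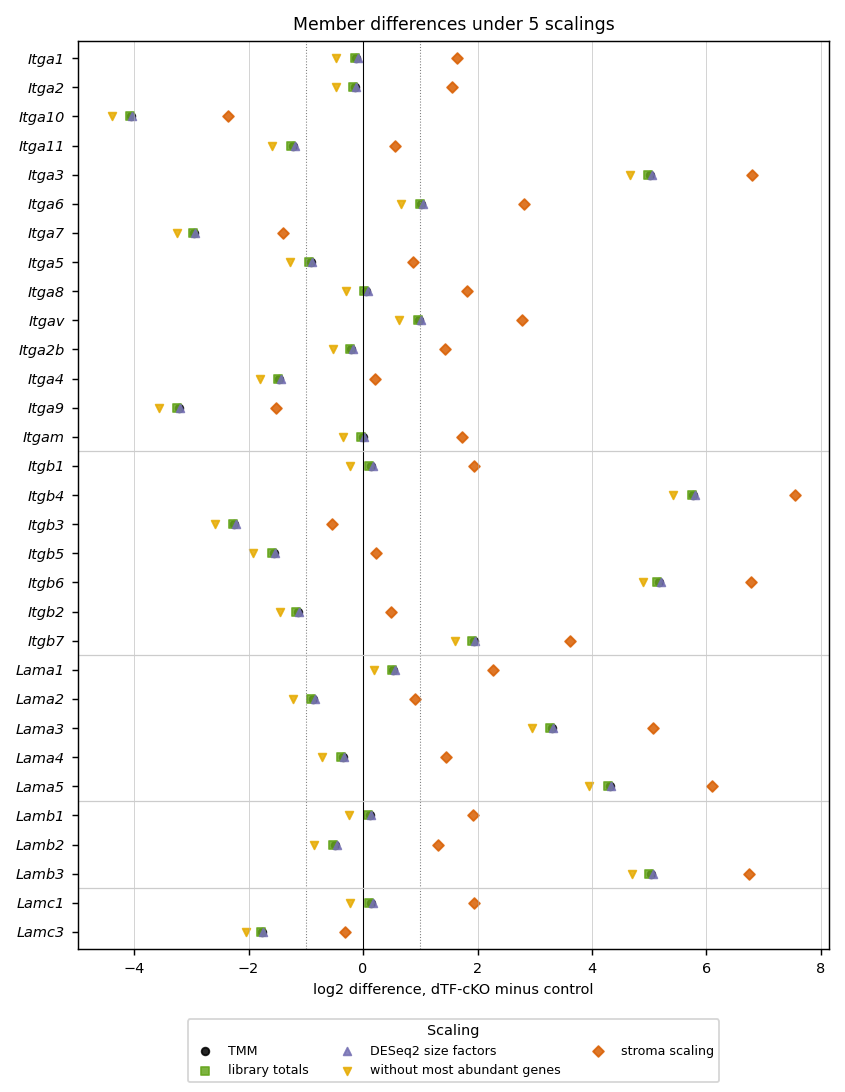
Log2 difference of 31 measured members in the dTF-cKO minus the control under TMM factors and the 4 other scalings (1 symbol each); dotted lines mark a 2-fold difference. The stroma scaling moves every member drawn to the right of its TMM value, past 0 for 12 of them, of which Itga11, Itga4, Itgb2 and Itgb5 were called lower under TMM, while Itga10, Itga7 and Itga9 stay at least 2-fold lower.

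Of 22 measured genes of the cytoplasmic complex that links integrins to actin, 1 was higher and 0 lower in the cKO against the control (median -0.14), beside 9.66% higher and 6.78% lower over all measured genes. That gene was Kank1, which encodes a talin-binding protein at the rim of adhesions, with 241 counts in the dTF-cKO, 625 in the cKO and 223 in the control. In the dTF-cKO against the control under the stroma scaling, 13 of these 22 were higher and 1 lower (median 1.56). Over all measured genes that scaling called 74.0% higher and 5.58% lower. Under TMM, 1 of the 22 was higher and 7 lower in the dTF-cKO against the control (median -0.24), beside 19.5% and 20.9%. Tns1, a tensin that binds beta chain tails, was 8.28-fold lower (6.57 to 10.6), and Tln2, the second talin, 6.17-fold lower (4.62 to 8.405), a call that Tns1 kept and Tln2 lost (-0.82) under the stroma scaling. Lims2, a partner of integrin-linked kinase, was 4.58-fold higher (2.37 to 9.54), on 43 counts in the dTF-cKO against 12 in the control.

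Of 21 measured integrin ligands of the interstitial matrix, 2 were higher and 10 lower in the dTF-cKO against the control (median -0.99), beside 19.5% and 20.9% over all measured genes. Under the stroma scaling 9 were higher and 4 lower (median 0.80), beside 74.0% and 5.58% over all measured genes. In the cKO against the control 1 was higher and 4 lower (median -0.08), beside 9.66% and 6.78% over all measured genes. Emilin1, an elastic fibre glycoprotein bound by alpha4 beta1 and alpha9 beta1, was 32.8-fold lower in the dTF-cKO against the control (25.3 to 43.3). Npnt, which encodes nephronectin, the ligand of alpha8 beta1, was 24.6-fold lower (18.04 to 34.5), and 3.27-fold lower in the cKO (2.88 to 3.71). Going the other way in the dTF-cKO were Cyr61, a secreted matricellular ligand of alpha v integrins, at 15.6-fold higher (13.6 to 17.9), and Icam1, the ligand of leukocyte beta2 integrins, at 14.7-fold higher (11.6 to 18.9). In the cKO, Tnc, which encodes tenascin-C, was 4.34-fold lower than in the control (4.03 to 4.68). Spp1, which encodes osteopontin, was 4.04-fold lower (3.78 to 4.32), and Icam1 was 2.41-fold higher (1.81 to 3.23). Under TMM, Tnc and Spp1 were also lower in the dTF-cKO against the control, at 4.30-fold (3.99 to 4.64) and 4.85-fold (4.51 to 5.21). Neither of them was 2-fold lower there under the stroma scaling.

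Of 19 measured partners of laminin in basement membranes, 5 were higher and 7 lower in the dTF-cKO against the control (median -0.72), beside 19.5% and 20.9% over all measured genes. Under the stroma scaling 11 were higher and 1 lower (median 1.08), beside 74.0% and 5.58% over all measured genes. In the cKO against the control 4 were higher and 1 lower (median 0.29), beside 9.66% and 6.78% over all measured genes. Bcam, a surface receptor for laminin alpha5, had 863 counts in the dTF-cKO, 400 in the cKO and 134 in the control, and was 8.23-fold higher in the dTF-cKO (6.85 to 9.94) and 3.78-fold higher in the cKO (3.10 to 4.63), the same order as Lama5. Col4a5, a type IV collagen chain found in epithelial basement membranes, was 7.44-fold higher in the dTF-cKO against the control (5.96 to 9.38), and Col4a6, its neighbour and partner chain, 5.28-fold higher in the cKO (3.08 to 9.57). Col15a1, a collagen of the outer face of vessel and muscle basement membranes, was 10.7-fold lower in the dTF-cKO against the control (7.74 to 15.2), and Pxdn, the enzyme that cross-links type IV collagen, 5.52-fold lower (4.77 to 6.40), of which Pxdn lost its call (-0.66) under the stroma scaling. Sparc, a collagen-binding protein abundant in bone, was 2.82-fold lower in the cKO against the control (2.76 to 2.88). Under TMM it was also 4.71-fold lower in the dTF-cKO against the control (4.59 to 4.84), but less than 2-fold lower under the stroma scaling.

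Of 8 measured genes of hemidesmosomes and skin anchorage, 5 were higher and 0 lower in the dTF-cKO against the control (median 4.10). Over all measured genes 19.5% were higher and 20.9% lower. Under the stroma scaling 8 of the list were higher and 0 lower (median 5.87), beside 74.0% and 5.58% over all measured genes. In the cKO against the control, 6 were higher and 0 lower (median 3.31), beside 9.66% and 6.78% over all measured genes. Krt5 and Krt14 of this list are also among the epidermis markers. Against the control, Krt14 was 370-fold higher in the dTF-cKO (239 to 606) and 193-fold higher in the cKO (125 to 316). Krt5 was 188-fold higher in the dTF-cKO (152 to 235) and 84.7-fold higher in the cKO (68.5 to 106). Fold differences of Itgb4, at 57.8 in the dTF-cKO and 9.53 in the cKO, were smaller than those of these keratins in both libraries.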

How the data were processed

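RNA of 3 libraries was sequenced, 1 for each of 3 genotypes, after RNeasy extraction and Ion Total RNA-Seq preparation of polyA RNA, per the labels' protocols. The authors deposited unnormalised read counts for each gene symbol, per the file headers. Reads were placed on mm10, per the submitters' processing notes. Which aligner, counter, annotation and strand setting made them is not given in the sources used here. Without strand, reads of overlapping antisense genes cannot be told apart.

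TMM factors from edgeR 4.0.16 (R 4.3.3) scaled the counts (0.963 dTF-cKO, 1.06 cKO, 0.984 control). Ratios divide scaled counts, leaving out the prior count, and carry exact conditional (Clopper-Pearson) 95% intervals from scipy 1.17.1; shares have exact binomial intervals. Since reads without molecular identifiers may be PCR copies, these intervals hold counting error only. The ratio and call functions were tested on simulated data. Levels per kb divide CPM by the union of exon bases in GENCODE vM21 (GRCm38), which matched all 37 members. A member was described in full if measured and at least 2-fold different in any comparison with an interval excluding 1; from each of 4 pathway lists the 2 highest and 2 lowest genes at least 2-fold different from the control were named. The members, lists and alternatives were chosen with earlier results of these data known. Values of 1 member are not reported here, though it stays in the counts and medians over the members. Tns2 and Adgre1, each listed for 1 list, were not matched. Alternatives were library totals, DESeq2 1.42.0 size factors, totals leaving out each library's top 20 genes, the stroma scaling, prior counts of 0.5 and 10, no floor or a floor of 20 CPM, and size rules of 1.5-fold, 3-fold and 2-fold with an interval excluding 1.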

Additional observations from a re-analysis of the deposited data

How the results depend on the processing

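Counts of called members kept within 1.5 times their value under library totals, DESeq2 size factors, totals without the 20 most abundant genes, both other prior counts, and the rule that also asks for a counting interval excluding 1. The exceptions were these. Under the stroma scaling the dTF-cKO had 21 members higher and 3 lower than the control, and 22 higher and 3 lower than the cKO. Over all measured genes 74.0% were higher and 5.58% lower than the control, and 75.6% and 4.83% than the cKO. The medians of all measured genes moved to 1.82 and 1.86. The medians of measured members became 1.68 and 1.60. In all, 12 members changed sign in the dTF-cKO against the control and 14 against the cKO, most of them not called under TMM. Of the called members, in the dTF-cKO against the control, Itga11, Itga4, Itgb2 and Itgb5 turned to 0.56, 0.20, 0.48 and 0.24 on the log2 scale, and in the dTF-cKO against the cKO, Itga4, Itgb3, Lama1 and Lama2 turned to 0.20, 0.062, 0.72 and 0.76. Library totals moved the median of all measured genes to 0.16 in the cKO against the control and to -0.12 in the dTF-cKO against the cKO. Scaling without the 20 most abundant genes moved the median of all measured genes to -0.29 in both comparisons of the dTF-cKO. A floor of 20 CPM left 20 members. Of these, 5 were lower in the dTF-cKO against the control (15.4% of genes at that floor) and 4 against the cKO (14.7%). The member medians at this floor were 0.13 and 0.19, and -0.19 in the cKO against the control. Without a floor the cKO had 2 members lower than the control (10.1% of all genes with counts) and a member median of -0.028. A 1.5-fold rule gave 4 lower in the cKO against the control, and a 3-fold rule 5 lower in the dTF-cKO against the control and 5 against the cKO. Fewer or more genes pass by construction of these rules; the cause of the shifts under the scalings was not tested. No paired analysis was possible because each genotype has 1 library, and leaving out a library would remove a genotype. At these depths a member with under 10 counts in a library has an interval too wide to place its ratio closely.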

Other observations

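Genes that carry an integrin name and lie outside the symbol rule gave these values. Itgb1bp2, which encodes melusin, a muscle protein that binds the beta1 tail, had 3 counts in the dTF-cKO, 14 in the cKO and 51 in the control, and was 13.3-fold lower in the dTF-cKO against the control (4.30 to 66.7) and 2.88-fold lower in the cKO (1.57 to 5.64). Itgbl1, a secreted protein with repeats like those of integrin beta chains, had 10 counts in the dTF-cKO, 45 in the cKO and 83 in the control, and was 6.498-fold lower in the dTF-cKO against the control (3.36 to 14.05) and 1.46-fold lower in the cKO (1.003 to 2.15). Itgb1bp1, which encodes the beta1 tail binder ICAP1, had 34, 57 and 46 counts, and Itgb3bp 16, 17 and 17 counts, in the dTF-cKO, cKO and control. Itgb2l, a relative of Itgb2, had 1, 0 and 0 counts.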
